A study of Drosophila melanogaster with 30 samples.

Results

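The loops described here are the chromatin loops that were called in both tissues of the series. A loop of the embryo list and a loop of the wing disc list were taken as shared when both pairs of anchors overlapped or lay at most 5 kb apart. By this rule 62 of 209 wing disc loops (29.7%) matched 61 of 186 embryo loops (32.8%), which gave 61 shared loops once the embryo loop at vg, which 2 disc loops matched, had been paired with the nearer of them. A further 147 loops were in the disc list alone and 125 in the embryo list alone.

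The series holds 30 samples from Drosophila melanogaster and asks how depleting or truncating GAGA-associated factor (GAF, the product of Trl) alters chromatin contacts, GAF binding and transcription. The wing disc group is Halo-Trl, that is, homozygous wandering 3rd instar larvae whose GAF carries a Halo tag, with 2 contact maps from 90 discs each. The embryo group is sfGFP-GAF(N), the control of the depletion experiment, with 4 contact maps from whole embryos collected 2 to 2.5 h after fertilization. GAF was tagged in both groups, and an untagged genotype was not analysed here. A map of either tissue mixes its cell types, so that fewer cells with a loop and fewer contacts per cell cannot be told apart. Tissue, stage, tag, the first fixation, the loop list and the anchor size (5 kb in the disc list, 1.6 kb in the embryo list) all change together between the groups, and their parts in any difference below cannot be told apart.

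A chromatin loop brings a pair of distant DNA segments, its anchors, close together in the nucleus. In Drosophila many such anchors are promoters or tethering elements, short sequences that hold promoters near enhancers or near the promoter of a related gene, and GAF is among the proteins that bind them. Early embryos use such contacts in patterning, when the zygotic genome is being switched on. The wing disc is the larval epithelium that later forms the adult wing and notum.

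Each value is a number of contacts between 2 anchors, as counted by the authors. Over their whole lists the disc libraries held 29215 and 31741 contacts and the embryo libraries between 1715 and 6978. At the 61 shared loops the disc libraries held 9016 and 10320 contacts, whereas embryo libraries 1 to 4 held 1844, 2718, 757 and 2973. A disc anchor pair covers 9.77 times the area of an embryo anchor pair, so raw contacts were not compared between tissues. Instead each loop was given its rank within a library (1 for the most contacts among the 61) and its share, the percentage of that library's contacts at the shared loops. Embryo libraries 2 and 3 differed by no more than sampling noise could give over the embryo list (a chi-square test of their contacts gave 1.08 per degree of freedom and p = 0.204). All other pairs of embryo libraries did differ, with p between 1.56e-09 and 0.0301. The 2 disc libraries also differed over the disc list (the same chi-square test gave 1.97 per degree of freedom and p = 3.08e-15). Embryo library 3 is also the shallowest, and embryo libraries 2 and 3 were kept apart. Counting them as 1 sample gave 16 loops higher and 14 lower in discs in the test described below, in place of 12 and 17.

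Shared loops were chosen by position, so a close match is in part set by the rule. Most lay well within the 5 kb limit. Anchors overlapped with no gap at 60 of the 61 shared loops, and the median offset between anchor midpoints was 0.4 kb, with 54 loops within 1 kb. The anchor distance differed by at most 1 kb at 48 loops. The exception to overlap was an unlabelled loop on X of 11.2 kb in the disc list and 19.2 kb in the embryo list, whose anchors lay 4.3 kb apart; the second disc loop at vg lay 2.5 kb away. Just outside the limit were a loop labelled rux in the disc list with a gap of 7.7 kb and one labelled Toll-4 with a gap of 8.7 kb.

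Shared loops took up a larger percentage of contacts in every embryo library than in either disc library. They held 31.1% and 32.8% of all contacts in the disc libraries, against 40.9%, 41.0%, 44.1% and 42.6% in the embryo libraries. The groups did not overlap, with means of 32.0% ± 1.23 in discs (SD, n = 2) and 42.1% ± 1.55 in embryos (SD, n = 4). Each percentage has its own list below the line, so no test was made between them. Exact 95% binomial intervals, which cover counting error only, ran from 30.6% to 33.4% over the disc libraries and from 39.4% to 46.5% over the embryo libraries.

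In each tissue few of the loops with the fewest contacts were shared. The median of the mean ranks of shared loops was 76.4 in the disc list, against 115.0 for disc-only loops. In the embryo list it was 68.1, against 112.6 for embryo-only loops. Each list was cut by mean rank into 4 parts of nearly equal size, from the most contacts to the fewest. In the disc list the shared percentage was 37.7%, 36.5%, 34.6% and 9.62%, so it was nearly level over the first 3. In the embryo list it was 53.2%, 36.2%, 30.4% and 10.9%. Among the first 20 loops of each library, 6 and 5 were shared in the disc libraries, and 10, 10, 14 and 12 in the embryo libraries. Of the disc list as a whole 29.7% was shared, so its first 20 loops held no excess of shared ones.

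Shared loops also had the longer median span in both lists. Their median distance was 39.0 kb in the disc list, where disc-only loops had 28.0 kb, and 40.4 kb in the embryo list, where embryo-only loops had 30.8 kb. Part of the disc-only list lies below the reach of the embryo list: 13 disc-only loops were shorter than the shortest embryo loop of 10.4 kb. Without them the median of the 134 remaining disc-only loops was 30.4 kb.

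**Figure D1:**
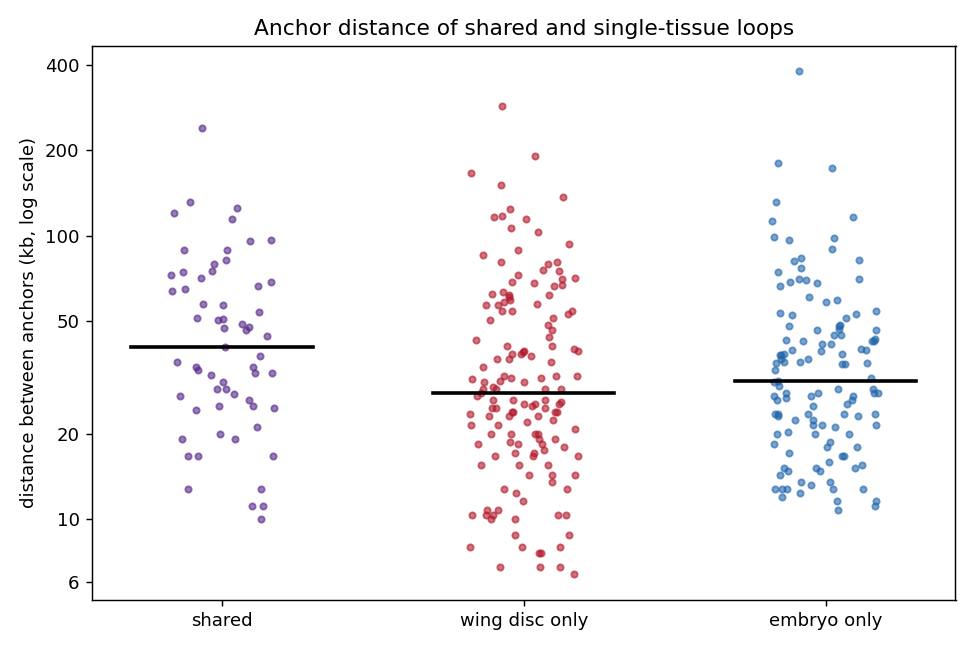
Distance between the anchors (kb, log scale) of the 61 shared loops as measured in the disc list, the 147 wing disc only loops and the 125 embryo only loops; each point is a loop and the black line is the median. The lines stand at 40.4, 28.0 and 30.8 kb, and 13 disc only points lie below 10.4 kb, the shortest embryo loop.

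The longest shared loop, at 240.0 kb in discs and 239.6 kb in embryos, joins scyl and chrb, 2 inhibitors of growth signalling through TOR. It is followed by CG17065/jb at 131.6 kb, tio at 124.8 kb, tna at 120.0 kb and vvl at 114.8 kb in the disc list. The shortest are at ss with 10.0 kb and at eya with 11.2 kb, beside the unlabelled loop on X, and at CG42389 and ds with 12.8 kb each. Not all shared loops are independent, since 10 of them form 8 pairs with a common anchor, around chrb, pyr and ths, B-H1 and B-H2, and tsh and tio.

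The order of the shared loops was alike within a tissue and less so between tissues. Spearman's rho over the 61 loops was 0.93 between the disc libraries and between 0.80 and 0.92 for pairs of embryo libraries, but between 0.39 and 0.61 for pairs of a disc and an embryo library. For mean ranks it was 0.51. These coefficients describe loops, which share libraries and are not replicates, and depth differs between libraries. The median rank difference was 10.9 places; 17 loops lay within 5 places of each other and 12 lay more than 20 apart. At 30 of 61 loops (49.2%) the ranks of the disc libraries did not overlap those of the embryo libraries, 14 nearer the top in discs and 16 nearer the top in embryos. An exact two-sided permutation test of ranks has 15 splits of 2 against 4 libraries, so its smallest p is 0.133 and it cannot reach 0.05 for any loop.

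**Figure D2:**
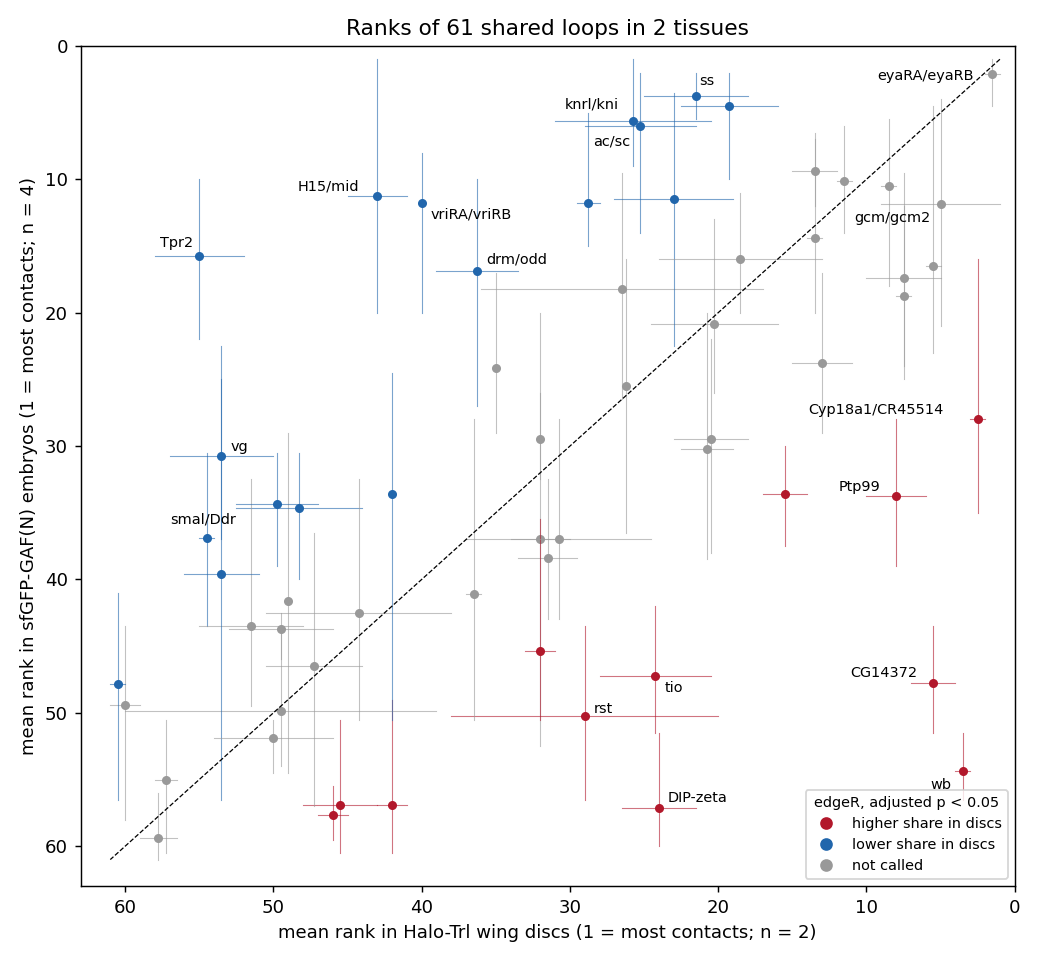
Mean rank of each of the 61 shared loops in Halo-Trl wing discs (n = 2, x axis) and in sfGFP-GAF(N) embryos (n = 4, y axis), with rank 1 at the right and at the top; thin lines span the libraries, the dashed line marks equal ranks, and colours give the edgeR call. The eya loop stands at the top in both, wb, CG14372 and DIP-zeta lie far below the dashed line, and Tpr2, H15/mid and vri far above it.

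The loop within eya had the best mean rank over both tissues. Eya is a transcriptional cofactor and phosphatase of the retinal determination network. The loop, labelled with transcripts A and B of the gene, has its anchors at 2L:6533701-6538700 and 2L:6544901-6549900 in the disc list (coordinates are those of the authors' lists, written 1-based; the genome build is not given in the sources used). It held ranks 1 and 2 in the disc libraries and ranks 1, 1, 2 and 4.5 in the embryo libraries. Its share was 3.72% and 3.08% in discs, against 3.47%, 3.38%, 3.43% and 3.46% in embryos, and these ranges overlap. The log2 difference, disc over embryo, was −0.07 ± 0.14 (SE; edgeR adjusted p = 0.632).

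Next in mean rank over both tissues came the loop between gcm and gcm2, paralogous transcription factors that specify glia and blood cells. Its ranks were 9 and 1 in discs, against 7.5, 4, 15 and 21 in embryos, so the groups overlap. The share was 2.76% and 3.10% in discs and 2.66%, 3.02%, 2.64% and 1.75% in embryos, with a log2 difference of 0.19 ± 0.16 (edgeR adjusted p = 0.352). Other loops near the top in both tissues were CG13300/CG42747 (mean ranks 8.5 in discs and 10.5 in embryos) and robo2, an axon guidance receptor (11.5 and 10.1). Among them too were svp, a nuclear receptor gene (5.5 in discs and 16.5 in embryos), the Hox gene Scr (13.5 and 9.38), and the 79.2 kb loop between the FGF genes pyr and ths (7.5 and 17.4). None of these 5 was called, with log2 differences between −0.28 and 0.37. The svp loop was close to the threshold (log2 difference 0.37, edgeR adjusted p = 0.0582) and was called higher in 8 of 16 alternatives, with adjusted p between 0.0145 and 0.464. The 79.2 kb pyr/ths loop was called higher in 2, with 0.44 under the replicate block (edgeR adjusted p = 0.0267) and 0.45 without embryo library 4 (adjusted p = 0.0437), in place of 0.22. Among the first 15 loops of both tissues 6 were the same, and among the last 15 again 6. The number that unrelated orders would share was not worked out, so these counts are descriptions only.

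The share of contacts differed between the groups at many of the shared loops. In edgeR's quasi-likelihood test with Benjamini-Hochberg adjustment, 12 of 61 loops (19.7%) were higher and 17 (27.9%) lower in discs at an adjusted p under 0.05, together 47.5%. Because TMM scaling over these loops sets their common level, higher and lower mean relative to the other shared loops. A change of at least 2-fold was reached by 4 of the higher and 3 of the lower loops. Of the 29 called loops 26 also had ranks that did not overlap, and 19 kept their call in every alternative setting that held them. There were 16 such settings. The unlabelled 11.2 kb loop, among the 19, was in 15 of them, since a limit of 0 kb leaves it out. Leaving out embryo library 2 reduced the lower loops to 10, leaving out embryo library 4 to 12, and the DESeq2 Wald test gave 10; the higher loops were 12, 12 and 11.

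The loop at wb showed the largest difference. The gene wb (wing blister) encodes a laminin alpha chain of the basement membrane. Its disc anchors lie at 2L:14260101-14265100 and 2L:14285301-14290300, 25.2 kb apart. It took 3.52% and 3.04% of the shared contacts in discs, from 317 and 314 contacts, against 0.868%, 0.699%, 0.528% and 0.639% in embryos, from 16, 19, 4 and 19 contacts. Every disc value lay above every embryo value, and the ranks were 3 and 4 in discs and 51.5, 54, 56.5 and 55.5 in embryos. The log2 difference was 2.17 ± 0.22 (edgeR adjusted p = 2.35e-17).

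The loops at CG14372 and DIP-zeta followed. CG14372 is listed as side-IV in the RefSeq gene table, a gene of the Side family of immunoglobulin cell-surface proteins, and its 88.8 kb loop joins 3R:13447301-13452300 and 3R:13536101-13541100. Its share was 3.41% and 2.62% in discs and 0.868%, 0.773%, 0.793% and 0.908% in embryos, without overlap (log2 difference 1.78 ± 0.22, edgeR adjusted p = 5.75e-13). DIP-zeta encodes an immunoglobulin-domain receptor of the family that binds Dpr proteins in neurons. Its 51.2 kb loop took 1.70% and 1.80% in discs, against 0.868%, 0.589%, 0.396% and 0.404% in embryos (log2 difference 1.56 ± 0.24, edgeR adjusted p = 2.62e-09). These embryo shares rest on 3 to 16 contacts per library, so their single values are imprecise.

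Of the other loops that were higher in discs, Cyp18a1/CR45514 names a cytochrome P450 that inactivates the moulting hormone ecdysone. It ranked 2 and 3 in the disc libraries, against 16, 34.5, 26.5 and 35 in the embryo libraries, with a log2 difference of 1.02 ± 0.18 (edgeR adjusted p = 5.16e-07). The loop labelled Ptp99 ranked 6 and 10 in discs and 35.5, 28, 39 and 32.5 in embryos (log2 difference 0.96). At rst, an adhesion protein of the immunoglobulin superfamily, the share was 1.79% and 1.31% in discs and 0.705%, 0.699%, 0.793% and 0.875% in embryos (log2 difference 0.94).

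The remaining higher loops had log2 differences between 0.53 and 0.99. They are CG15395/CG31690 (0.99), CG17065/jb (0.93), tio (0.86), the unlabelled 11.2 kb loop (0.80), ru/rho (0.58) and dve (0.53). The gene tio encodes a zinc-finger protein related to Teashirt, ru and rho encode rhomboid proteases that release EGF ligands, and dve encodes a homeodomain protein. All 12 higher loops had disc shares above every embryo share. The unlabelled loop is the only member whose anchors do not overlap between the lists, at distances of 11.2 kb in discs and 19.2 kb in embryos.

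Among the loops that were lower in discs, Tpr2, a co-chaperone with tetratricopeptide repeats, differed most. Its 64.0 kb loop on 2L took 0.688% and 0.930% of the shared contacts in discs, against 1.95%, 2.43%, 2.91% and 2.25% in embryos. It ranked 58 and 52 in the disc libraries and 22, 15, 10 and 16 in the embryo libraries, without overlap. The log2 difference was −1.56 ± 0.21 (edgeR adjusted p = 2.15e-11).

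The loop between H15 and mid, T-box genes of the Tbx20 type, stood far apart as well. It took 1.01% and 1.17% in discs and 2.01%, 2.54%, 2.77% and 4.24% in embryos, where library 4 stood highest at rank 1. The log2 difference was −1.51 ± 0.20 (edgeR adjusted p = 1.22e-11), and −1.08 at its smallest when 1 library was left out. Its disc libraries held 91 and 121 contacts. Disc-only loops labelled H15 (15.6 kb, 108 and 133 contacts) and mid (38.8 kb, 85 and 110) were not used in that share. The loop between transcripts A and B of vri, a bZIP factor of the circadian clock, took 1.12% and 1.18% in discs, against 2.44%, 2.61%, 2.11% and 2.72% in embryos (log2 difference −1.20 ± 0.20, edgeR adjusted p = 9.74e-08).

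The next 3 lower loops by size each join a pair of related transcription factor genes. The loop between knrl and kni, nuclear receptor-like factors that act in head and trunk segmentation and later in wing veins, ranked 31 and 20.5 in discs, against 9, 6.5, 1 and 6 in embryos (log2 difference −0.94 ± 0.18, edgeR adjusted p = 3.42e-06). The loop between drm and odd, zinc-finger genes of the odd-skipped family, had the same log2 difference of −0.94 ± 0.20 (edgeR adjusted p = 2.71e-05). The proneural bHLH genes ac and sc were joined by a loop that ranked 21.5 and 29 in discs and 2, 14, 3.5 and 4.5 in embryos (log2 difference −0.88 ± 0.18, edgeR adjusted p = 9.27e-06). In all 3 loops the 2 groups did not overlap.

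The loops at ss and at KP78a/pros were among the 10 with the best mean rank over both tissues. They were near the top in embryos and lower in discs. The bHLH-PAS factor Ss directs antennal identity and bristle size, and its loop ranked 18 and 25 in discs, against 4.5, 2, 5.5 and 3 in embryos (log2 difference −0.87). Pros is a homeodomain factor of neural differentiation, and the KP78a/pros loop ranked 16 and 22.5 in discs and 3, 3, 10 and 2 in embryos (log2 difference −0.85). At vg, the wing selector gene, the 16.8 kb disc loop took 0.898% and 0.804% of the shared contacts in discs, against 1.84%, 1.40%, 1.45% and 1.24% in embryos (log2 difference −0.83 ± 0.20, edgeR adjusted p = 1.96e-04). The second disc loop at vg, of 24.0 kb, held 68 and 102 contacts and was not used in that share.

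The other lower loops had log2 differences between −0.73 and −0.48. They are tna (−0.73), smal/Ddr (−0.69), E5/ems (−0.66), the 37.6 kb Antp loop (−0.60), ara/caup (−0.56), tsh/CG11629 (−0.52), tey/CG8765 (−0.49) and CG42389 (−0.48). The shares of the groups overlapped at 6 of the 17 lower loops, and there the call rests on the fit over all libraries. All 8 of these loops lost their call in at least 1 alternative, as did ru/rho and dve among the higher loops. The call held in 3 of 16 alternatives at CG42389, 6 at tey/CG8765, 9 at tsh/CG11629 and 10 each at dve and the 37.6 kb Antp loop, with edgeR or DESeq2 adjusted p up to 0.318, 0.318, 0.273, 0.313 and 0.394, and in 12 to 15 at the others. The second Antp loop, of 36.0 kb, was not called, with a log2 difference of 0.20 ± 0.21 (edgeR adjusted p = 0.447).

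**Figure D3:**
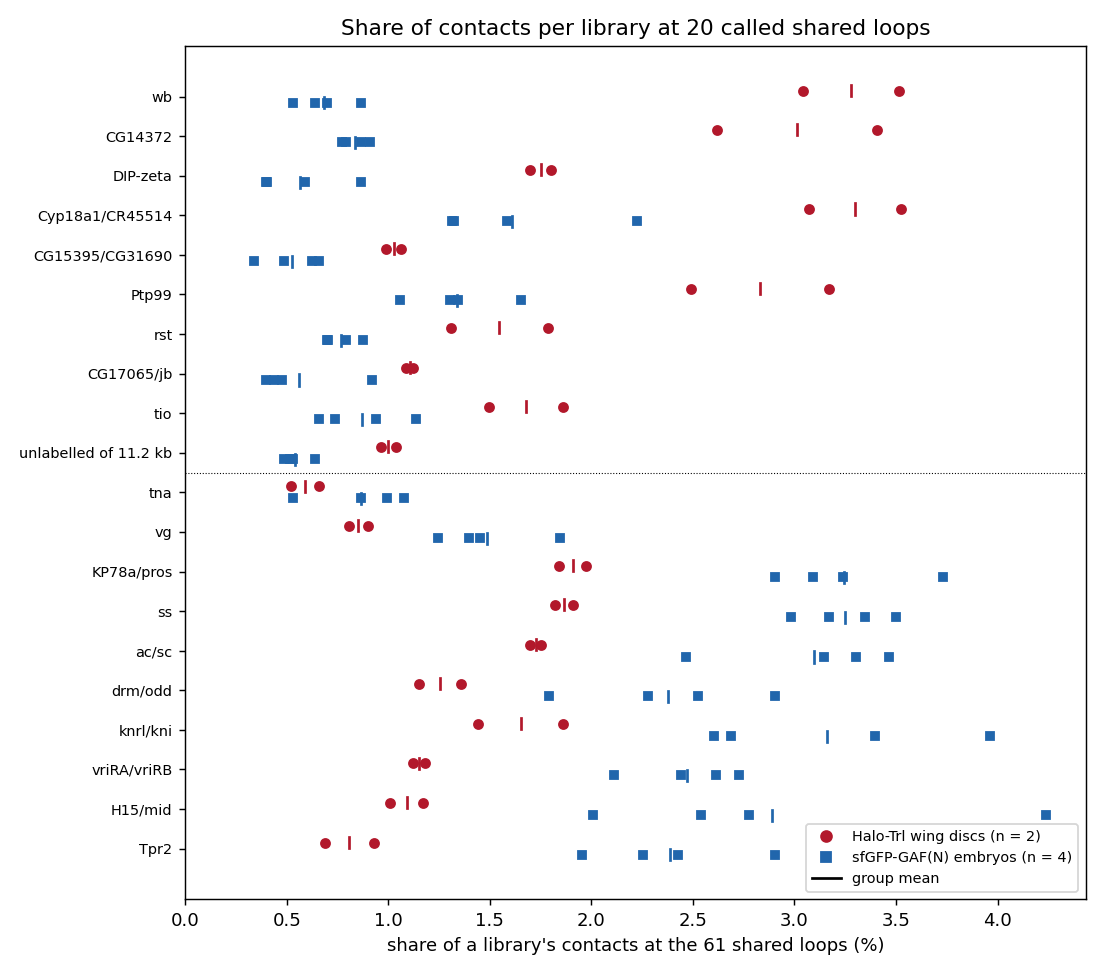
Share of each library's contacts at the 61 shared loops (%) for the 10 loops that were higher (above the dotted line) and the 10 that were lower in discs by size of the difference among those with ranks that do not overlap; circles are Halo-Trl wing disc libraries (n = 2), squares are sfGFP-GAF(N) embryo libraries (n = 4) and ticks are means. At wb the disc libraries sit at 3.52% and 3.04%, and the embryo libraries between 0.528% and 0.868%; at tna 1 embryo square lies at the level of the disc circles.

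Of the 61 shared loops, 19 join a pair of genes of 1 of 48 listed gene families. These paralog loops were long, with a median of 68.8 kb compared with 34.0 kb for the other 42, which include related pairs outside the list. In discs 1 of them was higher, 7 were lower and 11 were not called, with a median log2 difference of −0.21; over all 61 loops, 12 were higher and 17 lower, with a median of −0.07. The higher one was ru/rho. The lower ones were H15/mid, knrl/kni, drm/odd, ac/sc, smal/Ddr, which encode discoidin-domain receptors, E5/ems, homeobox genes of head and sensory development, and ara/caup, Iroquois genes of the notum.

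The other 11 paralog loops did not pass the test. The salr/salm loop, between spalt zinc-finger genes that place wing veins, took 2.01% and 2.44% in discs and 1.84%, 1.91%, 1.45% and 2.22% in embryos (log2 difference 0.14 ± 0.19, edgeR adjusted p = 0.535). The loop between the T-box genes Doc2 and Doc1 took 2.05% and 2.30% in discs, against 2.17%, 2.69%, 2.11% and 2.49% in embryos (log2 difference −0.21 ± 0.18, edgeR adjusted p = 0.352). The loop of the homeobox genes B-H2 and B-H1 ranked 32 in both disc libraries and 31.5, 26, 32.5 and 28 in the embryo libraries (log2 difference −0.21 ± 0.21, edgeR adjusted p = 0.407). In each of these 3 loops the shares of the groups overlap.

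Near the threshold were disco/disco-r, zinc-finger genes (log2 difference −0.44, edgeR adjusted p = 0.0529), the 46.4 kb pyr/ths loop (0.55, adjusted p = 0.059) and NetA/NetB, the Netrin guidance genes (−0.47, adjusted p = 0.0658). Single libraries and settings decide these values. Without embryo library 2 the 46.4 kb pyr/ths loop had 0.93 (edgeR adjusted p = 0.00987), and it was called higher in 6 of 15 alternatives; under the replicate block it had 0.28. The disco/disco-r loop had −0.18 without disc library 1, −0.20 without embryo library 4 and −0.76 without disc library 2, where it was called (edgeR adjusted p = 0.0156). NetA/NetB was called lower without disc library 1 (−0.62) and without embryo library 1 (−0.55).

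The bab1/bab2 loop, between BTB transcription factors of leg and abdomen, had a log2 difference of 0.36 ± 0.21 (edgeR adjusted p = 0.158). It had 0.60 without embryo library 3 (edgeR adjusted p = 0.0115), 0.49 with embryo libraries 2 and 3 summed (adjusted p = 0.0430), and 0.21 without embryo library 4. The sox21b/D loop, at 0.24, had 0.59 without disc library 1 (edgeR adjusted p = 0.0209) and −0.28 without disc library 2. The remaining ones, sox21b/D, toe/eyg, scyl/chrb and the 79.2 kb pyr/ths loop, had differences between −0.20 and 0.24. The family list does not hold every related pair. Among the pairs it lacks are gcm/gcm2 (24.8 kb, 0.19) and comm2/comm (28.8 kb, 0.22), which count among the other shared loops. Neither was called.

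**Figure D4:**
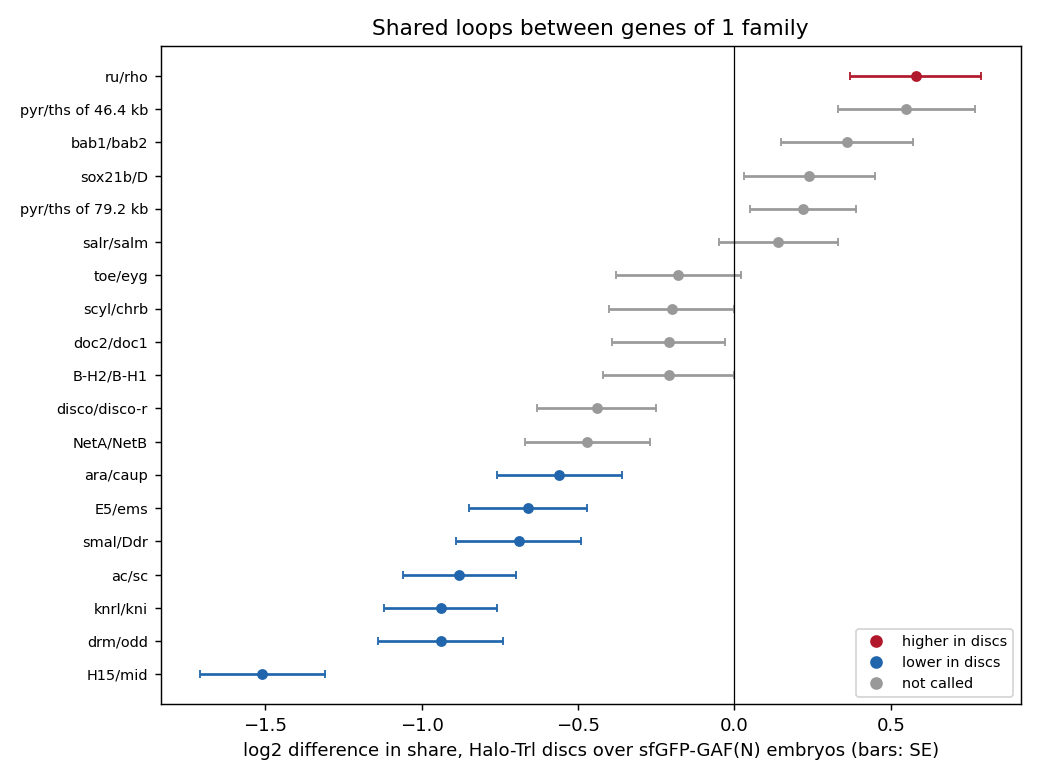
Log2 difference in the share of contacts, Halo-Trl wing discs over sfGFP-GAF(N) embryos, at the 19 shared loops between genes of 1 family, from edgeR; bars are standard errors and colours give the call at an adjusted p under 0.05. The values run from −1.51 at H15/mid to 0.58 at ru/rho, with 7 loops lower in discs and 1 higher.

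The difference between the tissues had a weak rank relation to distance, and its medians did not rise steadily from short to long loops. Across the 61 loops Spearman's rho between the log2 difference and the distance was 0.16, a description over loops that share libraries. Of the 11 loops up to 20 kb, 1 was higher and 6 were lower in discs, with a median log2 difference of −0.48. Of the 19 loops over 20 and up to 40 kb, 4 were higher and 4 lower, with a median of 0.19. The 21 loops over 40 and up to 80 kb had 3 higher and 6 lower, with a median of −0.08. Of the 10 loops over 80 kb, 4 were higher and 1 lower, with a median of 0.19. A disc anchor of 5 kb covers a larger part of a short loop than an embryo anchor of 1.6 kb does, and its part in these values was not tested.

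Loops called in 1 tissue alone differed mostly at both ends. Of the 147 disc-only loops 128 had no anchor within 5 kb of an embryo anchor, 17 had 1 and 2 had both. Of the 125 embryo-only loops 107 had no anchor near a disc anchor, 15 had 1 and 3 had both. The 2 lists were called separately, on maps of different depth, so absence from a list does not show that a contact is absent.

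Several of the disc-only loops with the most contacts were short. CG12288/ApepP, of 8.0 kb, held 650 and 624 contacts, more than any other loop in the disc list, and blw/CycB, which names a subunit of ATP synthase and cyclin B, held 600 and 555 over 6.8 kb. Loops at Ggamma30A, a G protein gamma subunit (48.4 kb, 460 and 470 contacts), and at gem (6.8 kb, 454 and 475) came next, and Dscam1, a neuronal recognition receptor, held 376 and 411 over 29.2 kb. An embryo loop labelled Ggamma30a/CG17005 missed the limit, with a gap of 11.9 kb. Of the first 20 disc loops 14 were disc-only, and 8 of these were shorter than any embryo loop. Contacts were not scaled for distance. Over the 61 shared loops, longer loops tended to have fewer contacts (Spearman's rho of mean rank and distance 0.248 in discs and 0.368 in embryos). The part of distance in the counts of these short loops was not tested.

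In the disc-only list 6 loops joined genes of 1 of the 48 listed families. They are esg/wor, Snail-type zinc-finger genes (93.6 kb), trn/caps, leucine-rich repeat receptors (114.4 kb), elB/noc (80.8 kb), 2 loops between a nub anchor and pdm2, POU factors of the wing (38.4 and 68.8 kb), and tsh/tio (190.4 kb). The tsh/tio loop held 30 and 48 contacts, and both of its anchors lie at anchors of embryo loops. In embryos these same genes lie at the shared loops tsh/CG11629 and tio.

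The embryo-only list was led by a loop with no gene label. The unlabelled 52.8 kb loop on 2L stood first of all in embryos, with 104, 161, 48 and 222 contacts, and an unlabelled loop of 380.4 kb on 3R held 59, 80, 34 and 116. Labelled loops that led the list were unc-4/OdsH, homeobox genes (21.6 kb; 63, 75, 29 and 79 contacts), TfAP-2 (13.6 kb), Kr-h1/CR43801 (15.2 kb), Pvf3 (23.6 kb) and inv/en, the engrailed-type homeobox genes (52.4 kb; 45, 61, 17 and 65 contacts). Genes of 1 of these families were joined by 11 embryo-only loops; pairs outside the list, such as ph-d/ph-p and danr/dan, are not in that count. Beside inv/en they are slp1/slp2, upd2/upd1, fd96Ca/fd96Cb, Doc3/Doc2, Doc3/Doc1, sob/odd, drm/sob, btd/Sp1, nub/pdm2 and dnt/drl.

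Some gene clusters thus kept 1 loop in both tissues and had further loops in a single list. In the odd-skipped cluster drm/odd was shared, while sob/odd and drm/sob were embryo-only. In the Dorsocross cluster Doc2/Doc1 was shared, while both loops of Doc3 were embryo-only. The loop between H15 and mid was shared, while the loops labelled with H15 alone and with mid alone were disc-only. At nub and pdm2 each list has loops of its own, the embryo loop spanning 60.8 kb. At scyl and chrb the long loop and CG7560/chrb were shared, while scyl/CG7560, of 180.4 kb with 11, 7, 3 and 11 contacts, was embryo-only, with both anchors at anchors of disc loops.

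RNA of Halo-Trl discs was used to describe the genes named at the loops (3 libraries of 30 discs each, other discs than those mapped, 58011776 to 85575887 reads in genes). Embryo RNA was not analysed here. Values are CPM, counts scaled to the reads of a library that fall in genes, not scaled for gene length, so levels are not compared between genes. All 9 wing disc markers reached 1 CPM in every library. Library 1 stood apart in fat body genes, whose 3 markers summed to 2024 CPM against 4.38 and 17.9 CPM in libraries 2 and 3, and in blood cell markers (207 against 72.3 and 89.6 CPM).

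Detection in disc RNA was then counted for the genes named at each kind of loop. At least 1 CPM in all 3 libraries was reached by 63 of 82 genes named at shared loops (76.8%), 72 of 89 at disc-only loops (80.9%) and 53 of 94 at embryo-only loops (56.4%), compared with 7134 of 17868 genes of the table (39.9%). These percentages are descriptions and were not tested. The lists were labelled differently: all 54 labelled embryo-only loops carry 2 labels, against 14 of 83 labelled disc-only loops. The part of labelling in these percentages was not tested. In library 1, which stands apart, they were 78.0%, 82.0%, 58.5% and 45.8%, in library 2 they were 79.3%, 82.0%, 57.4% and 41.3%, and in library 3 they were 78.0%, 83.1%, 58.5% and 41.6%.

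**Figure D5:**
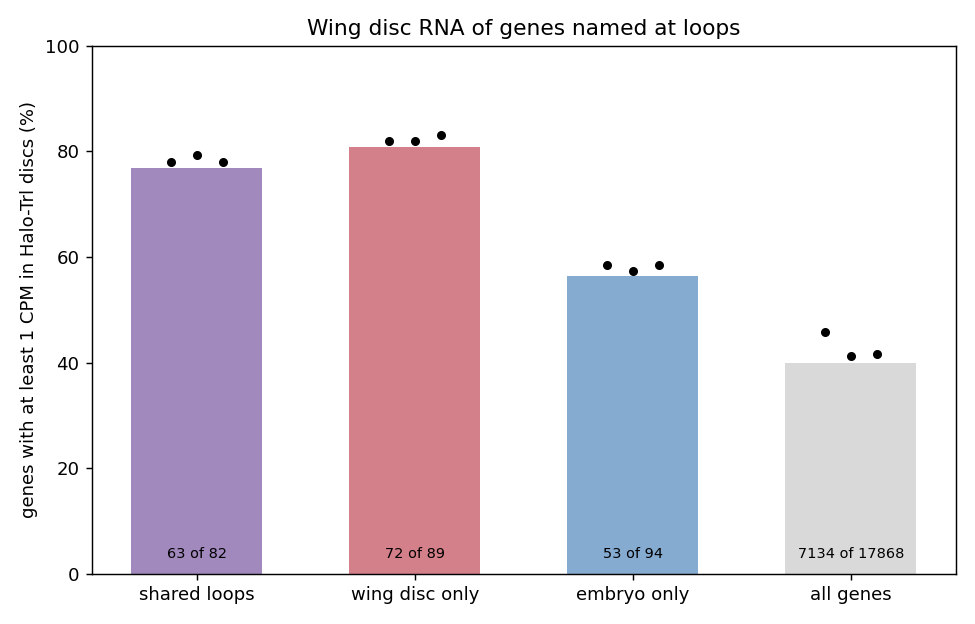
Percentage of named genes with at least 1 CPM in wing disc RNA of Halo-Trl larvae, for genes at shared, wing disc only and embryo only loops and for all genes of the table; bars require 1 CPM in all 3 libraries, with the number of genes printed, and points give each library alone. The bars stand at 76.8%, 80.9%, 56.4% and 39.9%.

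Most shared loops in discs lay at transcribed genes, but not all did. Of 58 shared loops with a gene in the RNA table, 44 had every named gene at 1 CPM or more in all libraries and 6 had no gene that reached 1 CPM in any library. Among these were gcm/gcm2, CG15395/CG31690, sox21b/D, HGTX and DIP-zeta. At gcm the RNA libraries had 0.258, 0 and 0.0345 CPM (18, 0 and 2 reads) and at gcm2 no reads, while the gcm/gcm2 loop ranked 9 and 1 in the disc libraries.

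The call of a loop and the RNA of its genes were set side by side. Genes at loops that were higher in discs reached 1 CPM in 8 of 14 cases (57.1%), those at lower loops in 23 of 27 (85.2%), and those at loops not called in 33 of 42 (78.6%). Each class holds genes named in the embryo list alone. Examples are jb and CR45514 at higher loops, KP78a and CG11629 at lower loops, and CG7560 at a loop not called. At the higher loops, wb had 81.3 ± 7.13 CPM (SD, n = 3), rst 146.7 ± 7.27 and tio 90.4 ± 1.10, while DIP-zeta had 0, 0 and 2 reads. At the lower loops, vg had 301.9 ± 19.9 CPM, Tpr2 122.5 ± 8.55, vri 112.3 ± 10.6 and ss 55.8 ± 0.673. A lower share of contacts in discs therefore occurred at genes with many disc reads as well as at pros, which had 2.73, 0.783 and 0.621 CPM.

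Paralog loops had both genes detected in 16 of 19 cases. The exceptions were sox21b/D, H15/mid, where H15 had 0.488, 1.45 and 1.03 CPM, and ru/rho, where ru had 0.459, 1.17 and 0.827 CPM. Among embryo-only pairs, inv and en had 22.5 ± 1.43 and 33.2 ± 2.90 CPM in discs, and no inv/en loop is in the disc list. Both slp genes and both fd96C genes stayed under 1 CPM in each library.

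The authors' deposited tables of their own comparisons give the response of these loops to GAF perturbation. In the authors' deposited table of delta-POZ over Halo-Trl discs 8 of 209 loops (3.83%) were lower at an adjusted p under 0.05 and none higher, of which 5 were among the 62 shared disc loops. In the authors' deposited table of GAF(deGradFP) over sfGFP-GAF(N) embryos 3 of 186 loops (1.61%) were lower and none higher, of which 2 were among the 61 shared loops. Halo-Trl and sfGFP-GAF(N) libraries enter those comparisons as well as the one between the tissues. In the authors' deposited tables CG7560/chrb had log2 fold changes of −1.56 in discs and −2.07 in embryos, and smal/Ddr had −1.18 and −1.52, all called. The loops scyl/chrb (−1.25), bab1/bab2 (−1.05) and CG14372 (−0.73) were called in the disc table of the authors' deposited tables, and had −0.91, −0.81 and 0.12 in the embryo table, none of them called.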

How the data were processed

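For both assays the values are counts as the authors deposited them, unnormalized: contacts for each loop, and RNA reads for each gene. The authors' deposited comparison tables give a log2 fold change and an adjusted p-value per loop. The submitters' processing notes name BWA, bedtools and DESeq2 for contacts and featureCounts for RNA; their versions, the genome build and the strand setting are not given in the sources used. The disc count columns headed wt were assigned to Halo-Trl, since every other disc genotype has columns under its own name. Of the embryo cells, 6 were empty and read as 0.

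Loops were matched with a limit of 5 kb. Contacts at the 61 shared loops were joined and tested with edgeR 4.0.16 in R 4.3.3 (quasi-likelihood F test, TMM, at least 10 contacts summed, Benjamini-Hochberg over these loops, called under 0.05). The SE is the log2 difference divided by the square root of F. The test compares how libraries of tables with different anchors share out contacts. Nothing says whether embryo maps came from separate collections, so the p-values measure the spread between these libraries. That spread was pooled over the loops (prior degrees of freedom infinite, residual 4). The p-value and SE of a loop therefore do not follow its own spread between libraries. The test was also run on contacts simulated from these libraries' means and the fitted spread. That run can check the procedure only, not whether its assumptions hold.

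Same-numbered libraries did not deviate together (r = 0.01 and −0.06), so they were not treated as pairs. With 2 disc libraries the deviations from their mean mirror each other, so this check cannot exclude a pairing. Loops named are the 10 best in mean rank over both tissues, up to 10 higher and 10 lower with separate ranks, and the 5 least different. Pairs from 48 gene families, the 5 longest and shortest, and leading single-tissue loops were named too. The other called loops, the gcm/gcm2 and comm2/comm pairs, the further disc loops at Tpr2 and loops of low RNA were singled out after their values were seen. One loop is counted but not reported here by name. Members and lists were chosen with earlier results of these data known. Of 333 labels 329 matched the RNA table, directly or through RefSeq synonyms; the unmatched include Ptp99. Alternatives were other limits, normalizations and filters, DESeq2 1.42.0, all 14 libraries, a replicate block, summing embryo libraries 2 and 3, and leaving out each library. Python 3.11.15, pandas 2.3.3, SciPy 1.17.1 and matplotlib 3.10.9 were used.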

Additional observations from a re-analysis of the deposited data

Results flagged for a closer look

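Among the groups of 4 embryo libraries examined, 43 in all, 1 had a library apart from the others. At CG17065/jb embryo library 1 held 0.922% of its contacts at the shared loops, while the other 3 held 0.396% to 0.478%, so the gap to the nearest was 0.844 of the whole range. Chance gives such a gap in about 1 in 20 groups. Both disc libraries, at 1.09% and 1.12%, lay above all 4.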

How the results depend on the processing

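Across 16 alternatives the number of higher loops ran from 10 to 16. The number of lower loops was 10 with the DESeq2 Wald test and between 10 and 17 when 1 library was left out, the cause of which was not tested; it was 12 with all 14 contact libraries, where 10 were higher. A replicate block gave 11 higher and 14 lower loops. Limits of 0, 2 and 10 kb gave 60, 60 and 62 shared loops, and rho of mean ranks stayed between 0.48 and 0.53. Among named loops, 620 of the recomputed log2 differences kept direction and call, 27 gained and 13 lost the call, and 10 changed sign, all at loops that had not been called: eya (0.01 with a 10 kb limit, 0.02 with embryo libraries 2 and 3 summed, −0.23 to 0.07 without 1 library), scyl/chrb (0.07 under the replicate block, −0.32 to 0.01 without 1 library), CG13300/CG42747 (−0.09 to 0.18), sox21b/D (−0.28 to 0.59) and toe/eyg (−0.26 to 0.08). Depth is least in embryo library 3, with a median of 10 contacts per shared loop, which limits single embryo shares.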
